A study of Rattus norvegicus with 12 samples.

Results

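Cell adhesion molecules and cadherins were examined in rat fibroblast-like synoviocytes (FLS) cultured with or without the bile acid taurochenodeoxycholic acid (TCDCA). The set had 8 genes, chosen by gene symbol for their place in synovial adhesion: Vcam1, Icam1, Alcam, Ncam1, Cdh2, Cdh11, Cdh13 and Nt5e. For each symbol the gene record with the highest mean level was used, out of 22442 records. There were 7 genes with a record, all 7 passed the filter on low values (a mean of 1 FPKM or more, passed by 11611 records, where FPKM is the number of sequenced fragments scaled by the length of the gene and by the mapped fragments of the library), and Ncam1 was not analysed here. The cells came from synovial tissue of male Sprague Dawley rats with adjuvant arthritis, induced with complete Freund's adjuvant, and were used at the third passage according to the study's methods. The FCA group was kept in culture medium alone, and the AT01, AT1 and AT10 groups received 0.1, 1 and 10 µM TCDCA for 12 h, with 3 libraries in each of the 4 groups. All 4 groups were thus arthritic cells, no cells of healthy rats were among them, and the effect of the arthritis itself cannot be read from these libraries. The study describes replicates 1 to 3 as repeats of the experiment, but neither it nor the labels say whether these were separate animals or cultures, so the p-values measure the spread between these libraries, which may be technical.

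FLS form the lining of the joint. They hold to one another chiefly through cadherin-11, the product of Cdh11, which binds its like on the neighbouring cell and is tied to the actin skeleton through catenins. VCAM-1 and ICAM-1 are immunoglobulin superfamily receptors that bind leukocyte integrins, are induced by TNF and IL-1 through NF-kappaB, and help to keep leukocytes in the inflamed synovium. Nt5e encodes CD73, a surface enzyme that makes adenosine from AMP and is widely used as a marker of mesenchymal stromal cells.

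The summed FPKM of a library ran from 284210 to 309696, and 11471 to 11679 records reached 1 FPKM in a library. The table holds no read counts, so the depth behind a single value is unknown. Of 15 fibroblast and synoviocyte markers, 13 had a record and all 13 reached the filter, with a summed level of 11770 to 12270 FPKM in FCA, 11710 to 12150 in AT01, 11550 to 12150 in AT1 and 10230 to 11470 in AT10, where each library was under every FCA library. Of 12 endothelial markers, 8 had a record and 0 reached the filter, with Tie1 listed at 0 and Cdh5 (VE-cadherin) at a mean of 0.000833 FPKM. Their summed level was 0.14 to 0.18 FPKM in FCA, 0.15 to 0.21 in AT01, 0.28 to 0.33 in AT1 and 0.12 to 0.22 in AT10. Of 14 macrophage and leukocyte markers, 9 had a record and 2 reached the filter, Cd68 and Cd14, and the sum ran from 6.83 to 22.1 FPKM in FCA, 7.21 to 20.3 in AT01, 5.79 to 17.9 in AT1 and 18.5 to 21.5 in AT10. The T cell marker Cd3e was listed at 0 in all 12 libraries. Of 10 smooth muscle and pericyte markers, 6 reached the filter, and their sum was 320.7 to 422.3 FPKM in FCA, 238.7 to 296.6 in AT01, 263.7 to 301.5 in AT1 and 171.8 to 320.3 in AT10, so that every TCDCA library was under every FCA library. This sum rested mostly on Acta2, with a mean of 244.6 FPKM beside 21.27 FPKM for Cnn1, the next highest. For neural and glial markers (2 of 10 over the filter) the sum was 15.75 to 36.72 FPKM in FCA, 21.26 to 58.13 in AT01, 46.55 to 62.55 in AT1 and 21.13 to 42.9 in AT10. For skeletal myoblast markers (1 of 10 over the filter) it was 5.36 to 10.73 FPKM in FCA, 3.62 to 4.12 in AT01, 4.02 to 4.95 in AT1 and 5.18 to 9.57 in AT10. The AT1 libraries thus lay above FCA in neural markers and, like AT01, under FCA in myoblast markers. The sums were 4.68 to 9.76 FPKM for chondrocytes and 0.3 to 0.6 for epithelium. In these bulk libraries, fewer cells of a type and less RNA per cell cannot be told apart.

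Vcam1 was the adhesion gene whose FCA and TCDCA libraries were separate. Its FPKM (record MSTRG.9955) was 3.64, 2.55 and 3.07 in the 3 FCA libraries, 4.48, 4.85 and 4.85 in AT01, 5.70, 4.24 and 5.07 in AT1, and 4.01, 4.58 and 4.87 in AT10. All 9 TCDCA libraries lay above the highest FCA library, at each of the 3 concentrations. The mean ± SD was 3.09 ± 0.545 FPKM over the 3 libraries of FCA and 4.74 ± 0.493 FPKM over the 9 TCDCA libraries, a ratio of 1.53. The difference did not pass the test across all records. On the log2(FPKM + 1) scale, which understates the change of a gene at this low level, the 9 TCDCA libraries exceeded the 3 FCA libraries by 0.49 (standard error 0.09, 95% interval 0.29 to 0.70), with an unadjusted p of 0.000208 and an adjusted p of 0.201 (limma, Benjamini-Hochberg over 11611 records). By p, Vcam1 held rank 12 among these records. The same separation of FCA from all 9 TCDCA libraries was seen, downward, in the summed smooth muscle and pericyte markers (320.7 to 422.3 FPKM in FCA, 171.8 to 320.3 in TCDCA). That sum rested mostly on Acta2, and of the 6 tested markers of the list 3 had positive and 3 negative differences. Among single cell type markers, Fap and Lum lay above every FCA library in all 9 TCDCA libraries, and Acta2, Thy1 and Acan lay under. Of all records, 2.86% did not overlap in this comparison. In AT1 the summed endothelial markers were above FCA as well (0.28 to 0.33 against 0.14 to 0.18 FPKM), with each of the 8 records under a mean of 0.1 FPKM. The part of these markers in the Vcam1 result was not tested. Without FCA replicate 2, the lowest library, the log2 difference was 0.40 and the adjusted p 0.604, and without FCA replicate 1, the highest FCA library, they were 0.59 and 0.0585.

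By concentration, the log2 difference of Vcam1 from FCA was 0.49 in AT01 (standard error 0.12, adjusted p = 0.571, limma), 0.56 in AT1 (0.14, adjusted p = 0.420, limma) and 0.43 in AT10 (0.13, adjusted p = 0.297, limma). These 3 comparisons share the FCA libraries. The exact permutation test of 3 libraries against 3 gave its smallest possible p of 0.1 each time, and that of 9 against 3 gave 0.00455, also the smallest it can give. Over every grouping of the 12 libraries into 4 sets of 3, the 4 groups took up 76.9% of the variance of Vcam1 (exact permutation p = 0.0101). Between concentrations Vcam1 differed by -0.13 (AT10 against AT1, 95% interval -0.42 to 0.17), -0.06 (AT10 against AT01, -0.29 to 0.16) and 0.06 (AT1 against AT01, -0.21 to 0.33), so that no step with concentration was detectable with 3 libraries a group.

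**Figure D1:**
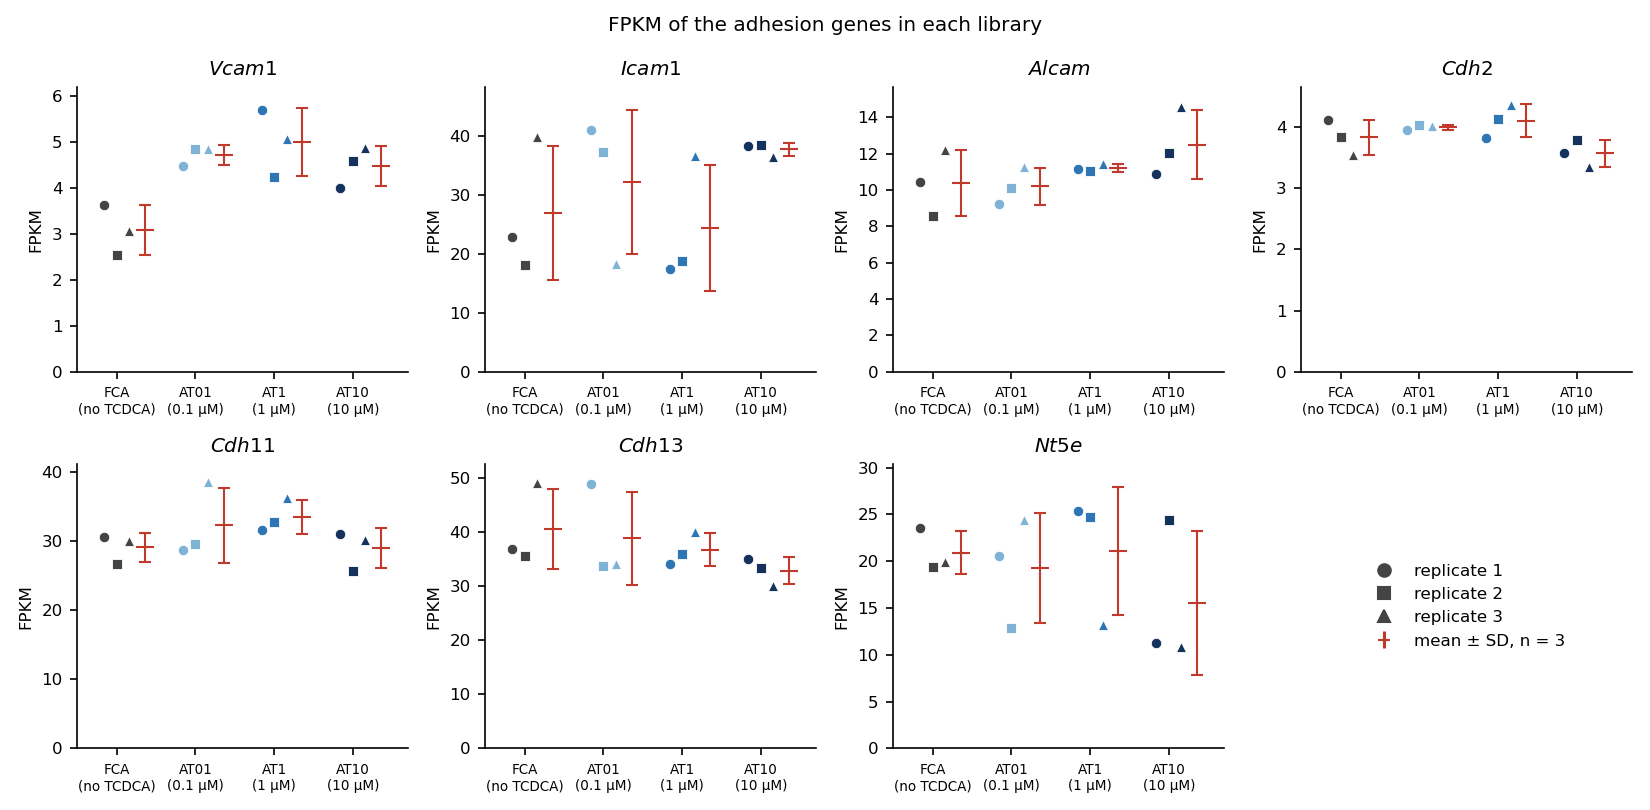
FPKM (y axis, from 0) of the 7 adhesion genes in each of the 12 libraries by group (x axis), with the replicate number as the symbol and the mean ± SD (n = 3) in red. Vcam1 is above its FCA values of 2.55 to 3.64 in every TCDCA library, while Icam1 and Nt5e jump between a low and a high level inside groups.

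Of the 8 genes, 4 had an entry in the promoter table used, and those of Vcam1 and Icam1 are shown because these genes are best known for induction by NF-kappaB. The sequences are the 250 bases before the gene start on the coding strand, from RefSeq (build GRCr8), where Vcam1 lies at chr2:206742784-206743033 on the minus strand and Icam1 at chr8:27829595-27829844 on the plus strand. Capitals mark a kappaB-type motif, GGNNNTTCC on either strand, or a TATA box, TATAAA on either strand.
Vcam1: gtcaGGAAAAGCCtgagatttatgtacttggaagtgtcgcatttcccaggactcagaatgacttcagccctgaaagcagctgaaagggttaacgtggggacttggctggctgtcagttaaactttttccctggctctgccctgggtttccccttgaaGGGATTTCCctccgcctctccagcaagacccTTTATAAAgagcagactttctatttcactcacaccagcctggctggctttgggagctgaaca
Icam1: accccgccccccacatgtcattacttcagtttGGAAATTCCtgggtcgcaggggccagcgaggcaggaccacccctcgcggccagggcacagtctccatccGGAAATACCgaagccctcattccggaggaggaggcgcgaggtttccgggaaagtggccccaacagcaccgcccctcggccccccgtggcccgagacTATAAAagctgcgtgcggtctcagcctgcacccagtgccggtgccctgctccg
The Vcam1 window held the kappaB-type motif at bases 246 to 238 and 93 to 85 before the start, and a run in which TATAAA and its reverse complement overlap at bases 62 to 55. The Icam1 window held it at bases 218 to 210, where it reads the same on both strands, and at bases 149 to 141, and TATAAA at bases 53 to 48. Of 33469 windows of this length in the table, 15.4% held the kappaB-type motif and 12.9% the TATA box. The windows of Alcam and Nt5e, the other adhesion genes with an entry, held neither motif. None of these 4 windows held a cyclic AMP response element (TGACGTCA, 1.59% of all windows) or an AP-1 type motif (TGANTCA on either strand, 6.34%). A match of letters is a description of the sequence and no measure of binding in these cells. The bases read as GC made up 50.4% of the Vcam1 window, 66.0% of the Icam1 window, 60.8% of the Alcam window and 68.8% of the Nt5e window, against a median of 51.2% over all windows.

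None of the 7 adhesion genes was called at an adjusted p under 0.05 (limma) in any comparison. Against FCA, the share of all tested records called in this way was 0.172% in AT10, 0.0947% in AT1, 0.0947% in AT01 and 0.0258% over the 9 TCDCA libraries, so calls were rare throughout. At an unadjusted p under 0.05, 1 of the 7 passed in each of these comparisons, Vcam1 each time, where 11.9%, 11%, 6.6% and 12% of all records did. The FCA and treated libraries did not overlap for 2 of the 7 genes in AT10 (Vcam1 above, Cdh13 below), 2 in AT1 (Vcam1 and Cdh11 above) and 1 in AT01 (Vcam1 above), against 19.9%, 19.9% and 14.0% of all records in the same comparisons. With the records of Cdh13 summed, AT10 (41.4 to 53.18 FPKM) overlapped FCA (49.19 to 55.21 FPKM), which leaves 1 gene there. With all 9 TCDCA libraries against FCA, 1 of 7 did not overlap, Vcam1, against 2.86% of records. Between concentrations, 0 of the 7 were called at an adjusted p under 0.05 and 0 at an unadjusted p under 0.05 (limma). The background between concentrations was 0.258% and 6.46% for AT10 against AT1, 0.0689% and 4.97% for AT10 against AT01, and 0.129% and 3.43% for AT1 against AT01. The study also asked for a log2 fold change beyond 1 or -1 beside an unadjusted p of 0.05, which 0 of the 7 genes met in any of these 7 comparisons.

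As a group, the adhesion genes lay on both sides of FCA. In the 9 TCDCA libraries 5 of 7 had a positive log2 difference from FCA, with a median of 0.11, beside 50.7% positive and a median of 0.003 over all records tested. In AT10 the median was -0.01 with 3 of 7 positive, in AT1 0.08 with 4 of 7, and in AT01 0.05 with 4 of 7.

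**Figure D2:**
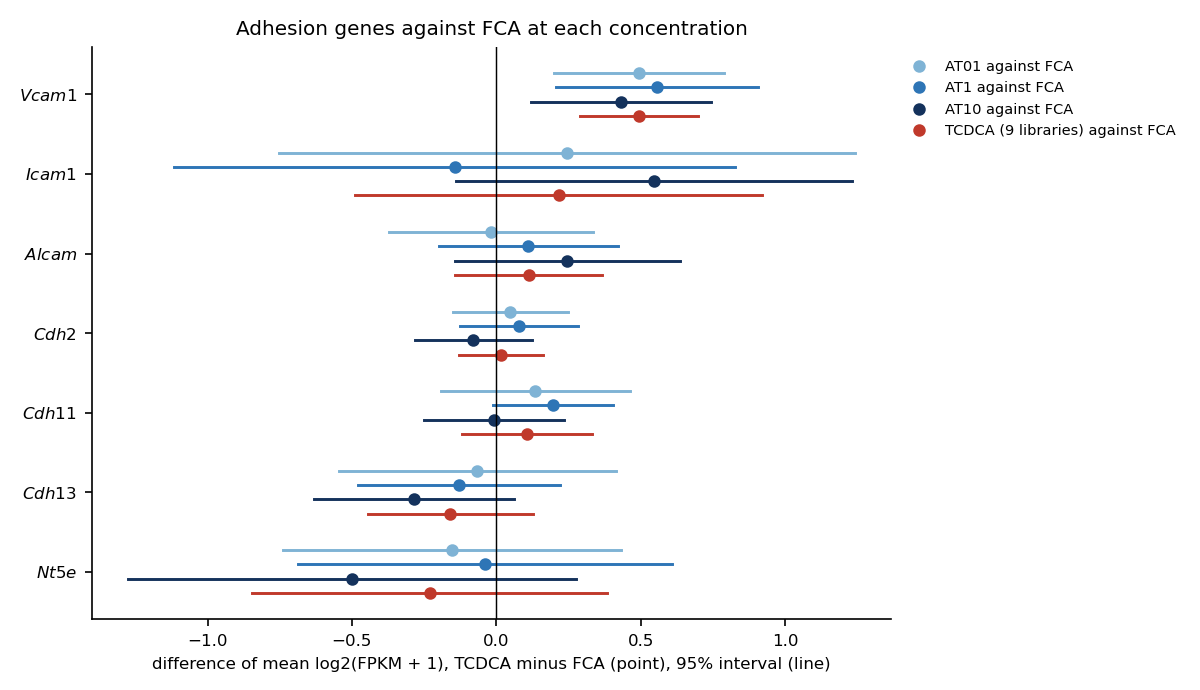
Difference of mean log2(FPKM + 1) from FCA (x axis, points) with the 95% interval from limma (lines) for each adhesion gene (y axis) at 0.1, 1 and 10 µM TCDCA and over the 9 TCDCA libraries. The 4 intervals of Vcam1 lie above 0, and every other interval includes 0.

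Icam1, the other inducible leukocyte receptor of the set, took a low or a high value with nothing between. Its FPKM (MSTRG.16692) was 22.9, 18.2 and 39.9 in FCA, 41.1, 37.3 and 18.4 in AT01, 17.5, 18.9 and 36.7 in AT1, and 38.4, 38.6 and 36.5 in AT10. The 5 low libraries spanned 17.5 to 22.9 FPKM and the 7 high libraries 36.5 to 41.1 FPKM. The gap between them was 0.65 on the log2 scale. Both levels were present in FCA, AT01 and AT1, while all 3 AT10 libraries were at the high one. The log2 difference from FCA was 0.55 in AT10 (95% interval -0.14 to 1.23, adjusted p = 0.492, limma), -0.14 in AT1 (-1.12 to 0.83) and 0.24 in AT01 (-0.75 to 1.24). AT10 exceeded AT1 by 0.69 (95% interval -0.002 to 1.38, adjusted p = 0.748, limma). The value against FCA in AT10 was 0.86 without FCA replicate 3 (adjusted p = 0.142, limma) and 0.31 without FCA replicate 2. AT10 against AT1 turned on 1 library: without AT1 replicate 3, the high one of its group, the difference was 1.02 and the adjusted p 0.0169. The 4 groups took up 29.0% of the variance of Icam1 (exact permutation p = 0.454).

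Nt5e (MSTRG.17253) had the same kind of split in other libraries. It stood at 23.6, 19.4 and 19.9 FPKM in FCA, 20.6, 12.9 and 24.4 in AT01, 25.4, 24.7 and 13.2 in AT1, and 11.3, 24.4 and 10.8 in AT10. The 4 low libraries, 10.8 to 13.2 FPKM, were all TCDCA libraries, and the 8 high ones, 19.4 to 25.4 FPKM, included the 3 of FCA. Low values occurred at each concentration, in 1 library of AT01, 1 of AT1 and 2 of AT10, so each TCDCA group overlapped FCA. The log2 difference from FCA was -0.50 in AT10 (95% interval -1.28 to 0.28, adjusted p = 0.555, limma), -0.04 in AT1 (-0.69 to 0.61) and -0.15 in AT01 (-0.74 to 0.43). The AT10 value was -0.86 without AT10 replicate 2, the high library of that group (adjusted p = 0.1596, limma), -0.33 without AT10 replicate 1 and -0.31 without AT10 replicate 3. Over the 9 TCDCA libraries it was -0.23 (-0.84 to 0.38), with 4 libraries above and 4 below every FCA library. The 4 groups took up 21.2% of the variance (exact permutation p = 0.611). A second record of this name (MSTRG.17254) held 0 to 1.51 FPKM and was under the filter.

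Set side by side, Icam1 and Nt5e left 1 of the 4 possible combinations empty. All 4 libraries with low Nt5e had high Icam1, and the 8 libraries with high Nt5e were 3 with high and 5 with low Icam1. No library was low in both, but the 2 genes were set side by side after their values were seen, and the empty combination was not tested. A record was taken to have 2 levels when the widest gap between its sorted values exceeded the range of either side and left at least 2 libraries on each, a definition set after these values were seen. By it 11.9% of all tested records had 2 levels, and in 8.34% the gap came to 0.5 or more (log2). Inside groups, the SD of log2(FPKM + 1) was 0.50 for Icam1 and 0.47 for Nt5e, beside a median of 0.17 over the tested records, and 91.6% and 90.5% of records of similar level varied less. Summed macrophage markers, which rest on Cd14, stood at 18.5 to 21.5 FPKM in AT10, where Icam1 was high throughout. They overlapped that range in FCA (6.83 to 22.1 FPKM) and AT01 (7.21 to 20.3), and stood at 5.79 to 17.9 in AT1. Their part in the result was not tested.

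**Figure D3:**
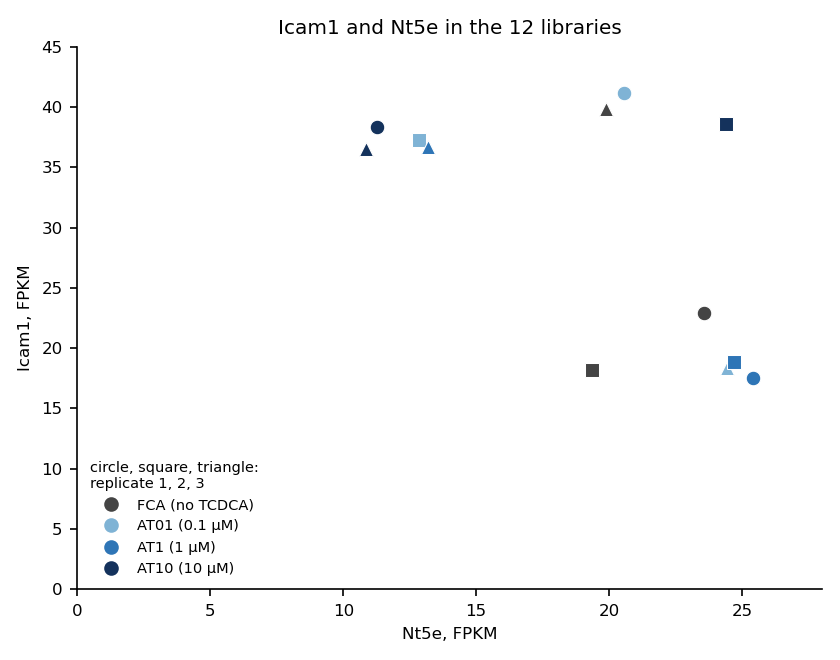
Icam1 (y axis, FPKM) against Nt5e (x axis, FPKM) in the 12 libraries, coloured by group, with the replicate number as the symbol. The 4 libraries at the left have Nt5e at 10.8 to 13.2 FPKM and Icam1 above 36.5 FPKM, and the area of low values in both genes is empty.

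Alcam encodes CD166, which binds its like and CD6 on T cells. It stood (MSTRG.3979) at 10.5, 8.58 and 12.2 FPKM in FCA, 9.23, 10.1 and 11.3 in AT01, 11.17, 11.03 and 11.46 in AT1, and 10.89, 12.03 and 14.60 in AT10. The highest value was AT10 replicate 3, the lowest FCA replicate 2, and every TCDCA group overlapped FCA. The log2 difference from FCA was 0.25 in AT10 (95% interval -0.14 to 0.64, adjusted p = 0.561, limma), 0.11 in AT1 and -0.02 in AT01. The group means were 10.4 ± 1.82 FPKM in FCA, 10.2 ± 1.03 in AT01, 11.2 ± 0.219 in AT1 and 12.5 ± 1.90 in AT10 (SD, n = 3), and the exact permutation test over the 4 groups gave p = 0.286.

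Cdh11, the principal cadherin of FLS, stood (MSTRG.8372) at 30.7, 26.7 and 30.0 FPKM in FCA, 28.8, 29.6 and 38.6 in AT01, 31.6, 32.8 and 36.3 in AT1, and 31.1, 25.7 and 30.2 in AT10. The 3 AT1 libraries lay above all FCA and all AT10 libraries, and the other groups overlapped FCA. Of all records, 19.9% did not overlap between AT1 and FCA, and the share between AT1 and AT10 was not counted. The log2 difference from FCA was 0.20 in AT1 (standard error 0.08, 95% interval -0.01 to 0.40, adjusted p = 0.453, limma), 0.14 in AT01 and -0.01 in AT10. AT10 lay 0.21 under AT1 on that scale (-0.21, 95% interval -0.45 to 0.04, adjusted p = 0.748, limma). The highest library, AT01 replicate 3, and the lowest, AT10 replicate 2, were apart by a ratio of 1.501. The exact permutation test over the 4 groups gave p = 0.323.

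Cdh2, which encodes N-cadherin, was the least variable gene of the set. It stood (MSTRG.7933) at 4.11, 3.84 and 3.54 FPKM in FCA, 3.94, 4.02 and 4.01 in AT01, 3.81, 4.13 and 4.35 in AT1, and 3.57, 3.79 and 3.35 in AT10. The 3 AT10 libraries lay under every AT01 and every AT1 library, and all TCDCA groups overlapped FCA. Each separation gave an exact permutation p of 0.1, the smallest possible with 3 libraries against 3. The share of all records that separate between concentrations was not counted. Against FCA that share was 14.0% to 19.9% at a single concentration. Over the 9 TCDCA libraries the log2 difference from FCA was 0.02 (95% interval -0.13 to 0.16, adjusted p = 0.937, limma), the narrowest interval of the 7 genes, and AT10 differed from AT1 by -0.16 (-0.35 to 0.04, adjusted p = 0.749, limma). The 4 groups took up 53.7% of the variance (exact permutation p = 0.0849). The SD inside groups was 0.068 on the log2 scale, and 3.32% of the 3041 records of similar level varied less.

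Cdh13 encodes T-cadherin, which is held in the membrane by a lipid anchor, has no catenin-binding tail and binds adiponectin. It was spread over 3 records, of which MSTRG.8780 was the highest. That record stood at 37.0, 35.7 and 49.2 FPKM in FCA, 48.9, 33.8 and 34.1 in AT01, 34.2, 35.9 and 40.1 in AT1, and 35.1, 33.5 and 30.1 in AT10. The 3 AT10 libraries lay under every FCA library, by as little as 35.1 against 35.7 FPKM, with a log2 difference of -0.28 (95% interval -0.63 to 0.06, adjusted p = 0.477, limma). AT1 and AT01 overlapped FCA, with differences of -0.13 and -0.07, and the exact permutation test over the 4 groups gave p = 0.415.

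The second Cdh13 record, MSTRG.8784, was listed at 18.2, 17.4 and 0 FPKM in FCA, 20.10, 16.04 and 19.41 in AT01, 16.7, 20.7 and 17.8 in AT1, and 18.1, 16.2 and 11.2 in AT10. The library listed at 0, FCA replicate 3, was the one with the highest value of the first record. Summed over the 3 records, the mean ± SD of Cdh13 was 52.5 ± 3.05 FPKM over the FCA libraries and 53.6 ± 7.70 FPKM over the 9 TCDCA libraries. FCA replicate 3 then had 49.2 FPKM beside 55.2 and 53.0 in the other FCA libraries, and the log2 difference of the 9 TCDCA libraries was 0.02 in place of -0.16. The direction for Cdh13 over the 9 libraries, in AT1 and in AT01 thus depended on whether the records were summed. In AT10 the sum was 53.2, 49.7 and 41.4 FPKM, which overlapped FCA, and the difference was -0.13 in place of -0.28.

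**Figure D4:**
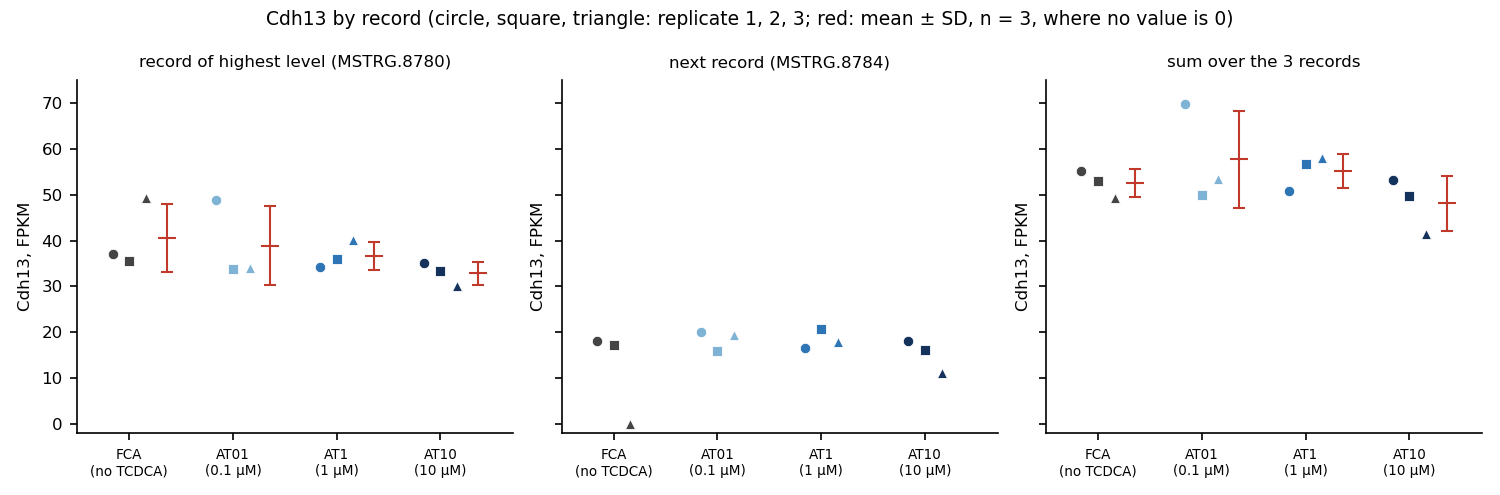
FPKM (y axis) of Cdh13 by group (x axis) in its highest record, in the next record and summed over 3 records, with the replicate number as the symbol. FCA replicate 3 is highest in the first panel at 49.2 FPKM, listed at 0 in the second, and near the other FCA libraries in the sum.

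FPKM is scaled by length, so levels can be set side by side. In FCA the order of mean levels was Cdh13 (40.6 ± 7.46 FPKM), Cdh11 (29.2 ± 2.12), Icam1 (27.0 ± 11.4), Nt5e (20.9 ± 2.29), Alcam (10.4 ± 1.82), Cdh2 (3.83 ± 0.285) and Vcam1 (3.09 ± 0.545, SD, n = 3 for each). Cdh13 and Cdh11, Nt5e and Alcam, and Alcam and Cdh2 did not overlap in FCA, whereas Cdh11 and Icam1, Icam1 and Nt5e, and Cdh2 and Vcam1 did. Alcam exceeded Cdh2 in all 12 libraries and Cdh2 exceeded Vcam1 in 3 of 12, which were the 3 of FCA. By mean level Cdh13 was at percentile 88.1 of the tested records, Cdh11 at 85.9, Icam1 at 85.6, Nt5e at 77.9, Alcam at 64.9, Vcam1 at 37.0 and Cdh2 at 33.6.

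The records most like each adhesion gene over the 12 libraries were found by Pearson's r of log2(FPKM + 1), as a description over 12 libraries that share groups and processing. They had the highest r among 11611 tested records, so the values are raised by selection, and none was tested. For Vcam1 they were Ehbp1 (r = 0.915) and Zc3h7a (0.888). For Icam1 they were RGD1305455 (0.847) and Il13ra1 (0.813), and for Nt5e an unnamed record, MSTRG.2272 (0.873), and Gtse1 (0.860). For Alcam they were Adgrg6 (0.950) and Ppwd1 (0.908). Among the cadherins, Cdh11 was closest to Sar1b (0.859) and Ppib (0.850), Cdh2 to Fdft1 (0.911) and Ephx1 (0.885), and Cdh13 to Abca7 (0.928) and Phf2 (0.892).

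The genes that work with these adhesion molecules were read in 7 lists: other cadherins, catenins and adherens junction proteins, other immunoglobulin superfamily adhesion molecules, counter-receptors and ligands, ectonucleotidases, sheddases and TNF and IL-1 response genes. They held 93 tested genes, of which 0 were called at an adjusted p under 0.05 in the 9 TCDCA against 3 FCA libraries (limma), and 9 passed an unadjusted p under 0.05, 7 of them higher and 2 lower in TCDCA, or 9.68% beside 12% of all records. No gene of these lists was called at an adjusted p under 0.05 at any single concentration either, where the number at an unadjusted p under 0.05 ran from 0 to 3 a list.

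Of 31 other cadherins and protocadherins, 26 had a record and 10 passed the filter, 5 with positive and 5 with negative log2 differences over the 9 TCDCA libraries (median 0.01). The highest was Fat1, a giant atypical cadherin, with 52.8 FPKM on average and a difference of 0.18 (adjusted p = 0.556, limma). The smallest p belonged to the desmosomal cadherin Dsg2, at 17.0, 0 and 17.2 FPKM in FCA and 8.75 to 22.2 FPKM in TCDCA, with FCA replicate 2 listed at 0 (adjusted p = 0.447, limma). Of 15 tested catenins and adherens junction proteins, 9 had positive differences and 6 negative (median 0.05). Among them Actn1, an actin cross-linker, had the highest level (156 FPKM, difference -0.11, adjusted p = 0.553, limma), and Afdn, which ties nectins to actin, the smallest p (0.16, standard error 0.07, unadjusted p = 0.0322, adjusted p = 0.378, limma).

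Of 14 other tested immunoglobulin superfamily adhesion molecules, 9 had positive differences (median 0.03). Bsg, which encodes basigin, an inducer of matrix metalloproteinases, was both the highest and the one of smallest p. It stood at 239, 252 and 218 FPKM in FCA and was above all of these in 7 of 9 TCDCA libraries, with a log2 difference of 0.38 over the 9 (standard error 0.14, unadjusted p = 0.0194, adjusted p = 0.353, limma) and 0.53 in AT01. Thy1, the fibroblast surface glycoprotein CD90, is given although it was picked after its values were seen. It was the only 1 of the 93 tested companion genes with no overlap between FCA and TCDCA (1.08%, beside 2.86% of all records). It stood at 154, 158 and 152 FPKM in FCA, 144, 142 and 146 in AT01, 135, 130 and 112 in AT1, and 142, 129 and 114 in AT10, so that all 9 TCDCA libraries were under the lowest FCA library. Its log2 difference was -0.22 (standard error 0.08, unadjusted p = 0.0209, adjusted p = 0.356, limma). Thy1 is also on the list of fibroblast markers, where 0 of 13 genes were called at an adjusted p under 0.05 (limma). Of these 13 genes, 4 had positive and 9 negative log2 differences over the 9 TCDCA libraries (median -0.14, beside 0.003 over all records). At an unadjusted p under 0.05 (limma), Fap, Dcn and Lum were higher and Thy1 lower in TCDCA. They made up 30.8% of the 13 genes, beside 12% of all records. Fap and Lum lay above every FCA library in all 9 TCDCA libraries, as Vcam1 did.

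Among the counter-receptors and ligands, 9 of 15 passed the filter, 6 with positive differences (median 0.08). The beta-1 integrin Itgb1, the partner of the VCAM-1 receptor chain Itga4, was the highest at 301 FPKM (difference 0.13, adjusted p = 0.482, limma), and Itga4 itself had 1.77 FPKM. The ICAM-1 receptor chains of leukocytes were near 0, with Itgb2 at 0.045 FPKM and Itgal at 0.0075 FPKM on average. Adipoq, the adiponectin gene, whose product binds T-cadherin, had the smallest p, with a mean ± SD of 2.56 ± 0.741 FPKM over the FCA libraries and 1.64 ± 0.732 FPKM over the 9 TCDCA libraries, with a difference of -0.45 (adjusted p = 0.442, limma).

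Of 12 tested ectonucleotidase and adenosine genes, 8 had positive differences (median 0.12). The highest was Slc29a1, the nucleoside transporter ENT1 (35.2 FPKM, difference -0.08, adjusted p = 0.707, limma), and the smallest p was that of Entpd4, an intracellular nucleotidase (4.07 ± 0.472 FPKM in FCA, 5.42 ± 0.937 in TCDCA, difference 0.33, unadjusted p = 0.0263, adjusted p = 0.366, limma). Of 15 sheddases and processing enzymes, 8 had positive differences (median 0.02). Mmp14, a membrane collagenase, was the highest (191 FPKM, difference 0.03, adjusted p = 0.912, limma), and the metalloprotease Adam12 had the smallest p (difference 0.17, unadjusted p = 0.0216, adjusted p = 0.356, limma).

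The TNF and IL-1 response genes are the list to which Vcam1 and Icam1 themselves belong by their regulation, and were counted without them. Of 22 genes 18 passed the filter, 13 with positive and 5 with negative log2 differences over the 9 TCDCA libraries (median 0.10, beside 0.003 over all records). At an unadjusted p under 0.05 (limma) 2 passed, Il6 and Sod2, or 11.1% of the list beside 12% of all records. The chemokine gene Ccl2 had the highest level, with a mean ± SD of 1439 ± 277 FPKM over the FCA libraries and 1687 ± 461 FPKM over the 9 TCDCA libraries, with a difference of 0.21 (adjusted p = 0.711, limma). Il6, the interleukin-6 gene, stood at 81.6, 108 and 128 FPKM in FCA, with 6 of 9 TCDCA libraries above all of these. Its difference was 0.55 (standard error 0.19, unadjusted p = 0.0150, adjusted p = 0.339, limma).

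**Figure D5:**
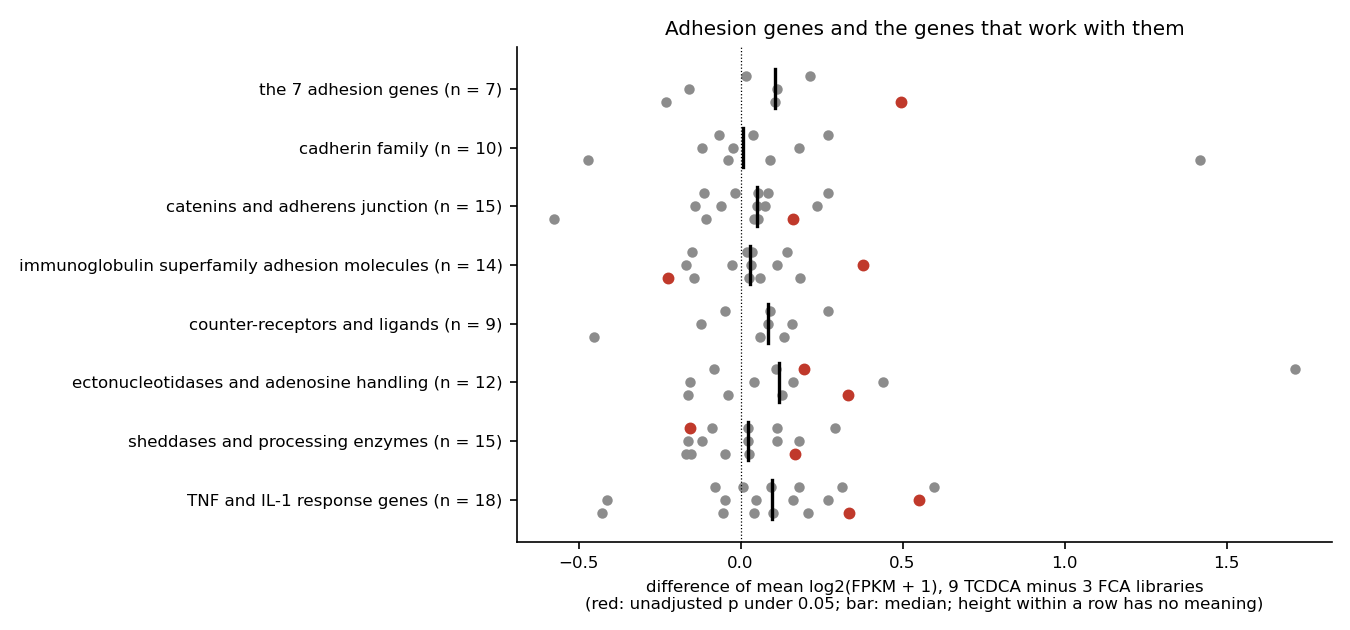
Difference of mean log2(FPKM + 1) between the 9 TCDCA and the 3 FCA libraries (x axis) for the 7 adhesion genes and the tested genes of 7 companion lists (y axis), with list medians as bars and genes at an unadjusted p under 0.05 in red. The list medians lie between 0.01 and 0.12, and no point passed an adjusted p under 0.05.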

How the data were processed

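RNA-seq of poly(A) RNA was analysed from 12 libraries. According to the study's methods and the labels, the authors trimmed reads (cutadapt), aligned them with HISAT2 to a rat genome whose build is not given in the sources used here, assembled transcripts with StringTie and deposited FPKM per gene record to 2 decimals, with no counts. The labels and the methods name different sequencers and amounts of input RNA. Records named MSTRG are assembled loci, so a gene can be split over several.

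Adhesion genes were matched by gene name, taking the record of highest mean FPKM. The members, lists and tests were chosen with earlier results of these data known. Records that averaged 1 FPKM or more were tested on log2(FPKM + 1) with limma 3.58.1 (R 4.3.3, lmFit, then eBayes with trend) between 2 groups at a time, with Benjamini-Hochberg adjustment over 11611 records. The 4 groups gave 6 pairwise comparisons, and all 9 TCDCA libraries were also set against FCA. Exact permutation tests were run in Python 3.11.15 with NumPy 2.4.6. They were two-sided for a difference of means. For the 4 groups they counted groupings with at least as large a share of variance. Scripts were tested on simulated data. Besides the adhesion genes, the text names from each list the gene of highest mean FPKM and that of smallest p over the 9 TCDCA libraries, and the records with the highest correlation. Alternatives were a pseudocount of 0.1 FPKM, no filter, a minimum of 10 FPKM, 1 fit over all libraries, FPKM summed by gene name, a Ballgown-style F test, scaling by median of ratios, records above 0 in all libraries, the replicate block, and leaving out each library.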

Additional observations from a re-analysis of the deposited data

How the results depend on the processing

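No adhesion gene was called at an adjusted p under 0.05 under any alternative except 1, AT10 against AT1 without AT1 replicate 3, where the count was 1 (Icam1) and otherwise 0 when single libraries were left out. Of 500 fold changes of the adhesion genes and of the list genes of smallest p, recomputed under alternatives that keep all libraries or leave out the 3 libraries farthest from the centre (the latter chosen after seeing the data), 496 kept their direction and their side of the threshold. The 4 that turned were all of Cdh13: summing FPKM by gene name gave 0.0694 for AT1 against FCA, 0.12 for AT01 against FCA and 0.0205 for the 9 TCDCA libraries against FCA, and the test in the manner of Ballgown gave 0.0726 for AT01 against FCA, for which the cause was not tested. A minimum of 10 FPKM left Vcam1 and Cdh2 untested, so the count at an unadjusted p under 0.05 against FCA was 0 there in place of 1. In AT10 against FCA that count was also 0 by the test in the manner of Ballgown, and 0 to 2 with 1 library left out. Over the 9 TCDCA libraries it was 2, Vcam1 and Cdh13, without the 3 farthest libraries. Between concentrations it was 0 or 1 under the alternatives. For Vcam1 in the 9 TCDCA libraries, the difference ran from 0.40 to 0.61 and the adjusted p from 0.153 to 0.530 over these alternatives, and with 1 library left out from 0.40 to 0.59 and from 0.0585 to 0.604.

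Leaving out 1 library turned the sign in 27 of 336 fold changes of the adhesion genes, none past the threshold. Against FCA the ranges were -0.0680 to 0.0724 for Cdh11 in AT10, -0.47 to 0.17 for Icam1 in AT1, -0.21 to 0.0134 for Cdh13 in AT1, -0.0100 to 0.22 for Alcam in AT1, -0.19 to 0.25 for Nt5e in AT1, -0.24 to 0.0765 for Cdh13 in AT01, -0.14 to 0.0921 for Alcam in AT01 and -0.34 to 0.10 for Nt5e in AT01. Over the 9 TCDCA libraries they were -0.0191 to 0.53 for Icam1, -0.0281 to 0.0572 for Cdh2 and -0.00814 to 0.22 for Alcam. With no change of sign, AT10 against FCA ran from 0.31 to 0.86 for Icam1, -0.86 to -0.31 for Nt5e, -0.37 to -0.14 for Cdh13 and 0.13 to 0.36 for Alcam. For AT10 against AT01, Icam1 ran from -0.0493 to 0.51. For AT1 against AT01 the ranges were -0.0214 to 0.16 for Vcam1, -0.0135 to 0.19 for Cdh11, -0.0065 to 0.0703 for Cdh2, -0.15 to 0.11 for Cdh13 and -0.14 to 0.41 for Nt5e.

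The study describes the numbers as repeats of the experiment, without tying a number to a shared animal, batch or day, and the values gave no pairing: deviations from the group means had a mean r of -0.00162 between libraries of the same number and 0.000811 between others, and 3 of 12 libraries correlated best with their own number. With the replicate block, 0 adhesion genes were called in each of the 7 comparisons, and Vcam1 over the 9 TCDCA libraries had an adjusted p of 0.153 (limma). The difference in Vcam1 passed the unadjusted threshold but not the adjustment over 11611 records. No counts per record are given, so the number of reads behind low values is unknown.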
